A study of Mus musculus with 10 samples.

Results

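The circadian clock genes Per1, Per2, Per3, Cry1, Cry2, Clock, Npas2, Nr1d1, Nr1d2 and Dbp were examined in the caudal brain and rostral cord of mouse pups with and without the transcription factor Nkx2.2. All probe sets whose platform gene symbol names a listed gene were taken, which gave 23 of 45037 non-control probe sets for the 10 genes. The genes were chosen by name with the genotype differences of these arrays already known, so those differences are given as a description. Expression was measured on 1 array for each of 10 C57BL/6 mice, 5 Nkx2.2-/- (replicates 11, 12, 22, 29 and 43) and 5 wild-type littermates (replicates 14, 15, 16, 18 and 21), aged 1.5 to 2 days, in a study that set transcripts of the knockout against those of its littermates. Pons, medulla and rostral spinal cord were cut from 20 µm frozen sections after perfusion under pentobarbital, which mice of both genotypes received. How the Nkx2.2 allele was made and the hour at which each mouse was perfused are not stated here.

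The clock is a feedback loop of transcription. CLOCK, or its relative NPAS2, pairs with the product of Arntl and activates genes with an E-box, among them the Per, Cry and Nr1d genes and Dbp, and the PER and CRY proteins then repress that activation. The Nr1d proteins, also called REV-ERB, repress Arntl and Npas2 through ROR elements, and DBP acts through D-boxes. In adult mouse tissues Dbp, Nr1d1, Nr1d2 and Per3 peak within some hours of each other and Arntl and Npas2 peak at the opposite time of day. The master clock lies in the suprachiasmatic nucleus of the hypothalamus, outside the tissue sampled here, and other brain regions hold clocks of their own.

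The promoter windows of Cry1 with Nr1d2 and of Per1 with Nr1d1 are shown first, since these genes are known targets of the loop. Of the pairs of listed genes, these had the highest within-genotype correlation r across the 10 mice, by each gene's brightest probe set. With the second Nr1d2 probe set the r of Cry1 with Nr1d2 was -0.607, and further limits of both relations are given below. The sequences are RefSeq windows of GRCm38.p6, 250 bases before to 50 after a start used for the gene, on the gene's strand. Capitals mark the clock motifs found on either strand. The E-box CACGTG stood in the first of the Per1 windows and in Cry1. The related CACGTT stood on the opposite strand, read as AACGTG, in Cry1 and Nr1d1, and the Nr1d2 window held none of the letters searched.
Cry1, chr10:85185005-85185304, minus strand: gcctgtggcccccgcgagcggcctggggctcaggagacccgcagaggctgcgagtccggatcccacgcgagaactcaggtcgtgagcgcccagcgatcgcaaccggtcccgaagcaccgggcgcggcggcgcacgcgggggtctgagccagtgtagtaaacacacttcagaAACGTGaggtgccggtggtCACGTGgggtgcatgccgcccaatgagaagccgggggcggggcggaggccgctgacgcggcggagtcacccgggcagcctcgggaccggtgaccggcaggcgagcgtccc
Nr1d2, chr14:18239057-18239356, minus strand: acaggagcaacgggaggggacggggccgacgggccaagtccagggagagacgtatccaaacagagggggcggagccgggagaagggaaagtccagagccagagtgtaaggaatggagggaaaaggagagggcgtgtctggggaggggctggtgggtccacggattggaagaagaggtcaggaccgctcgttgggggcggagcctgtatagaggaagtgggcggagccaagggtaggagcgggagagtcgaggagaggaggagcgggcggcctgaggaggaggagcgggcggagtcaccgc
Per1, chr11:69098699-69098998, plus strand: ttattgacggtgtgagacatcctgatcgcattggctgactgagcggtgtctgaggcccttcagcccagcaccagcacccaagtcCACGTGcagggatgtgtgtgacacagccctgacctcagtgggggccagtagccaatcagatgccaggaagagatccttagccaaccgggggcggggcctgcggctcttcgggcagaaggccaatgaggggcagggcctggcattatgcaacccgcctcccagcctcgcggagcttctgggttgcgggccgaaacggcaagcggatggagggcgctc
Nr1d1, chr11:98775328-98775627, minus strand: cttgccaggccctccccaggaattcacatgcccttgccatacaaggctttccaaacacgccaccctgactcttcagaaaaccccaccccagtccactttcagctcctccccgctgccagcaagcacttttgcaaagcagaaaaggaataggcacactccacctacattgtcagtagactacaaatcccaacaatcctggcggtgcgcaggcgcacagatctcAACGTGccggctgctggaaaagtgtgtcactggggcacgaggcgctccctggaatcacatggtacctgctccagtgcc
In Cry1 the first bases of the motifs lay at position -79 for CACGTT and -60 for CACGTG, counted from the start used for the window. CACGTG began at -166 in the Per1 window and CACGTT at -28 in Nr1d1. The start used for this Per1 window lies inside the gene, whose RefSeq span begins upstream at chr11:69095108. Of the 10 genes 9 had at least 1 window in the table, 12 windows in all, and Per2 had none. CACGTG was in 2 of these 12 windows and in 7.15% of all 32851 windows, and CACGTT was in 3 of 12, those of Cry1, Cry2 and Nr1d1, and in 4.68% of all. The D-box TTATGTAA occurred in 1 of 12, that of Per3, which held it at -205 and -158, and in 0.938% of all windows. The D-box TTACGTAA, the ROR element core TAGGTCA and the cyclic AMP response element TGACGTCA were in 0 of 12, and in 0.119%, 2.61% and 1.79% of all windows. No matches overlapped. A match describes letters in the window.

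The labels were checked on Nkx2-2, which lay at 4.73, 4.34, 4.24, 4.58 and 4.64 on the log2 scale in Nkx2.2-/- replicates 11, 12, 22, 29 and 43, against 6.88, 6.47, 6.49, 6.51 and 6.42 in wild-type replicates 14, 15, 16, 18 and 21 (limma, Benjamini-Hochberg adjusted p = 7.23e-05). Whether this probe set reads sequence that the null allele lacks is not known here. The mean of the neuronal list, whose genes do not mark a region, lay between 10.2 and 10.7 on all arrays. The list of 10 hindbrain genes, which bears on the labelled origin, had probe sets above 50.2% (Tph2) to 94.98% (Hoxa5) of all probe sets. The mean of the list of forebrain and midbrain genes lay between 4.62 and 5.29 on the arrays, and its genes lay above 5.51% (Tbr1) to 60.3% (En2) of probe sets. Cerebellar genes lay above 17.5% (Gabra6) to 98.7% (Zic1) of probe sets and choroid plexus genes above 26.1% (Kl) to 99.6% (Ttr). Tissue outside the named parts was thus not excluded. Lists of cerebellar, choroid plexus and proliferation genes were highest in Nkx2.2-/- replicate 11 and wild-type replicate 18 within each genotype. So was the list of forebrain and midbrain genes, which shares Otx2 with the choroid plexus list and so does not read forebrain and midbrain alone. The mean of the hindbrain list was lowest in the same mice, at 6.09 and 6.17. Whether the dissections differed between genotypes was not tested. In such tissue, fewer cells of a type and less RNA per cell cannot be told apart.

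A pair of arrays, 1 of each genotype, stood apart. The 3 prime control probe set of Gapdh exceeded the 5 prime one by 3.78 in Nkx2.2-/- replicate 43 and by 2.13 in wild-type replicate 14, against -0.32 to 0.13 on the other 8 arrays. Such a gap is a sign of shortened RNA or cRNA. On these arrays 30.3% of all probe sets lay above the mean of the other arrays of their genotype on both and 35.3% lay below it on both. They are called the low 5 prime arrays, and results on the clock genes are given with and without them.

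By genotype, 0 of 23 clock probe sets passed the test over all probe sets, in which 0.0511% of 45037 passed, all 23 of those lower in Nkx2.2-/- mice (limma, Benjamini-Hochberg adjusted p under 0.05). At an unadjusted p under 0.05 there was 1 clock probe set, of Per2, and over the whole table there were 486 higher and 1059 lower probe sets. In sign, 21 of 23 clock probe sets were higher in Nkx2.2-/- mice, beside 50.8% of all probe sets. Without overlap between genotypes were 1 higher and 0 lower clock probe sets, beside 0.315% and 0.442% of all probe sets, or 0.757% together. On the 8 arrays other than the low 5 prime pair these were 2 higher and 0 lower, beside 1.39% and 1.41%. The list of caudal Hox genes was higher on average in Nkx2.2-/- mice in 11 of 12 genes, with list means of 4.97 to 5.34 in Nkx2.2-/- mice and 4.88 to 4.99 in wild-type mice. That of proliferation genes was lower in 13 of 14, at 5.26 ± 0.211 in Nkx2.2-/- mice and 5.62 ± 0.226 in wild-type mice (SD, n = 5 each). With the caudal Hox mean as a covariate the median difference of the 10 clock genes, by their brightest probe sets, was 0.01 in place of 0.05, and Per1, Cry2, Npas2 and Dbp had differences of -0.11, -0.07, -0.05 and -0.13. The median log2 difference of the 23 clock probe sets was 0.03, against 0.001 over all probe sets. The probe sets of 1 gene share its transcript and are not independent. Each gene is described below by its probe set of highest mean, and the 10 such differences ran from -0.02 for Clock to 0.24 for Nr1d2.

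**Figure D1:**
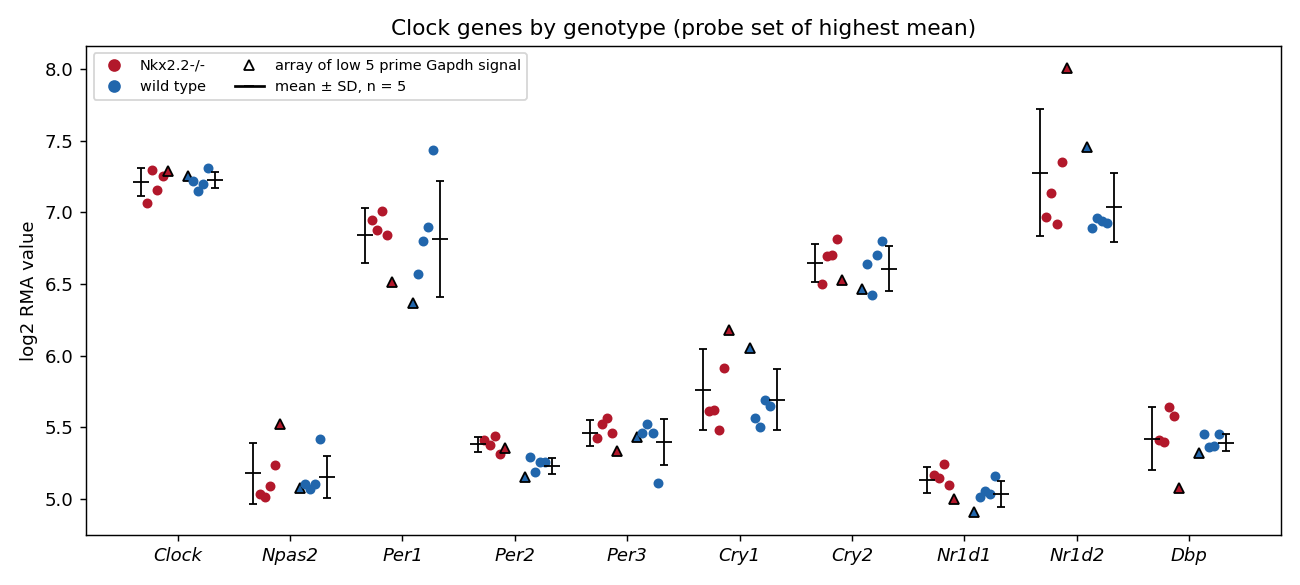
Log2 RMA values of the 10 clock genes, each by its probe set of highest mean, in Nkx2.2-/- mice (red, left) and wild-type mice (blue, right); points are mice, triangles are the low 5 prime arrays and bars are mean ± SD (n = 5 each). Only the Per2 groups do not overlap, and the triangles are the highest points of Cry1 and Nr1d2 in both genotypes.

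Per2, a core repressor of the loop, was the clock gene whose groups did not overlap. Its brightest probe set read 5.41, 5.38, 5.44, 5.31 and 5.36 in Nkx2.2-/- replicates 11, 12, 22, 29 and 43, against 5.15, 5.29, 5.19, 5.26 and 5.26 in wild-type replicates 14, 15, 16, 18 and 21. Every Nkx2.2-/- mouse lay above every wild-type mouse, though the lowest of the first and the highest of the second were only at 5.31 and 5.29. The means were 5.38 ± 0.0494 in Nkx2.2-/- and 5.23 ± 0.0569 in wild-type mice (SD, n = 5 each), a log2 difference of 0.15 (SE 0.0404) or 1.11-fold. Such a separation towards Nkx2.2-/- was seen in 0.315% of all probe sets, and in 1 of 23 here. The probe set varied little within genotype, with a pooled SD of 0.0533, lower than in 88.7% of probe sets, and its mean lay above 56.4% of them. Without the low 5 prime arrays the difference was 0.14.

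The other Per2 probe sets were also higher on average and overlapped between genotypes. The second in brightness read 5.27, 5.24, 5.04, 5.41 and 5.59 in Nkx2.2-/- mice and 5.32, 5.02, 5.10, 5.21 and 5.22 in wild-type mice, in the same order of replicates, a log2 difference of 0.13 (SE 0.0947). Its highest value in each genotype came from the low 5 prime array. The dimmest read 4.79, 4.67, 4.69, 4.74 and 4.63 in Nkx2.2-/- mice and 4.57, 4.64, 4.60, 4.64 and 4.66 in wild-type mice, a difference of 0.09 (SE 0.0397). Its mean lay above 31.0% of all probe sets. Without the low 5 prime arrays it did not overlap either, so 2 of 23 clock probe sets were then separated towards Nkx2.2-/-, beside 1.39% of all probe sets. Within genotype, the brightest and the second ran against each other across mice, with r = -0.645 (exact two-sided permutation p = 0.0483) and rho = -0.673 (exact permutation p = 0.0510), both unadjusted. On the 8 other arrays r was -0.642 (exact permutation p = 0.144). The probe sets of Per2 thus gave differences of 1 sign between genotypes, but not 1 ordering of the mice.

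**Figure D2:**
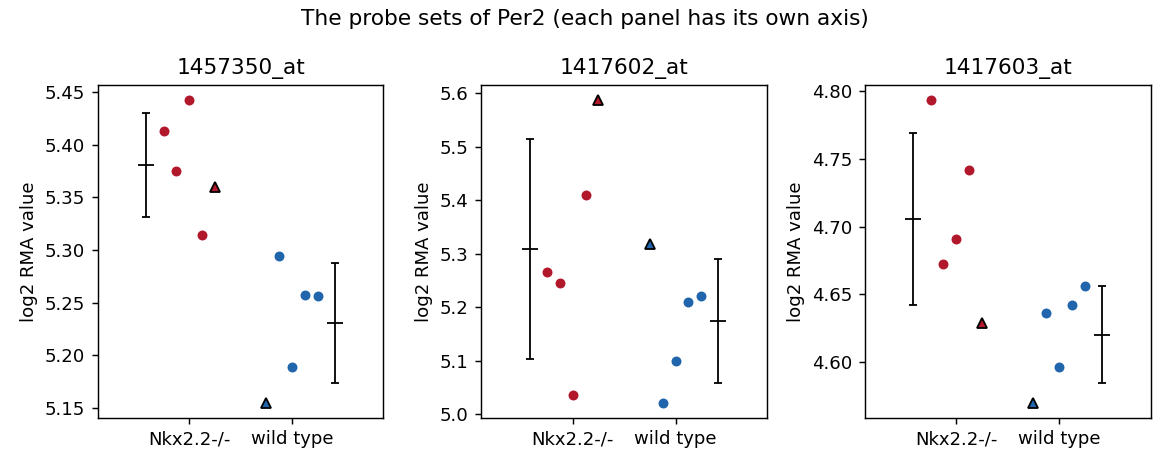
Log2 RMA values of the 3 Per2 probe sets in Nkx2.2-/- mice (red, left) and wild-type mice (blue, right), 1 panel and axis each; triangles are the low 5 prime arrays and bars are mean ± SD (n = 5 each). The groups do not overlap in the left panel and overlap in the middle and right panels.

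Per1, a repressor whose transcript also responds to glucocorticoids and neuronal activity, had 1 probe set. It read 6.95, 6.88, 7.01, 6.84 and 6.52 in Nkx2.2-/- replicates 11, 12, 22, 29 and 43, against 6.37, 6.57, 6.80, 6.89 and 7.44 in wild-type replicates 14, 15, 16, 18 and 21. The wild-type mice spanned the Nkx2.2-/- mice on both sides, and the lowest of each genotype was its low 5 prime array. The log2 difference was 0.03 (SE 0.175), and -0.003 without those arrays. The mean of the list of glucocorticoid-responsive genes lay between 7.11 and 7.39 in Nkx2.2-/- mice, against 6.97 to 7.28 in wild-type mice other than replicate 21. In wild-type replicate 21, the highest for Per1, it was 7.58. In Nkx2.2-/- replicate 43 and wild-type replicate 14, the lowest for Per1, it was 7.38 and 7.28, next to the highest of each genotype. The part of that response in the Per1 value was not tested.

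Per3, the third period gene, had 6 probe sets, with differences from -0.02 to 0.06. The brightest read 5.43, 5.53, 5.56, 5.46 and 5.33 in Nkx2.2-/- mice and 5.43, 5.46, 5.52, 5.46 and 5.11 in wild-type mice, in the same order of replicates. The genotypes overlapped and wild-type replicate 21 lay far below the others. Across 15 pairs of its probe sets the within-genotype r had a median of 0.0422 and ran from -0.516 to 0.722, so they did not order the mice alike.

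The cryptochromes, which repress CLOCK and its partner together with the PER proteins, were each read by 1 probe set. Cry1 read 5.61, 5.62, 5.48, 5.91 and 6.18 in Nkx2.2-/- replicates 11, 12, 22, 29 and 43, against 6.05, 5.56, 5.51, 5.69 and 5.65 in wild-type replicates 14, 15, 16, 18 and 21. The highest mouse of each genotype was again the low 5 prime array, by 0.53 and 0.45 over the mean of the other Nkx2.2-/- and wild-type mice. The difference between genotypes was 0.07 (SE 0.140). Cry2 read 6.50, 6.69, 6.71, 6.81 and 6.53 in Nkx2.2-/- mice and 6.47, 6.64, 6.42, 6.70 and 6.80 in wild-type mice, a difference of 0.04 (SE 0.0836). The genotypes overlapped over most of the range of Cry2 values.

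The activators differed little between genotypes. Clock, which encodes an activating subunit, averaged 7.21 ± 0.0995 in Nkx2.2-/- and 7.23 ± 0.0584 in wild-type mice (SD, n = 5 each) by its brightest probe set, a difference of -0.02 (SE 0.0526). The 3 dimmer Clock probe sets had differences from 0.03 to 0.06. Of these, the third and the second in brightness ran together within genotype with r = 0.943 (exact two-sided permutation p = 0.00208) and rho = 0.842 (exact permutation p = 0.0130), and neither followed the brightest one closely, with r of 0.358 and 0.198 (exact permutation p = 0.481 and 0.691; rho = 0.0545 and -0.127, exact permutation p = 0.902 and 0.763). On the 8 other arrays the first value was 0.799 (exact permutation p = 0.0642). Npas2, the relative of Clock, read 5.03, 5.02, 5.09, 5.23 and 5.53 in Nkx2.2-/- mice and 5.08, 5.11, 5.07, 5.11 and 5.42 in wild-type mice, a difference of 0.02 (SE 0.103). A single mouse of each genotype was high for it, Nkx2.2-/- replicate 43 and wild-type replicate 21. The second Npas2 probe set had a difference of 0.11 (SE 0.0537) and did not follow the first within genotype, with r = -0.0174 (exact permutation p = 0.973; rho = 0.0182, exact permutation p = 0.976).

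Nr1d1 and Nr1d2 encode the REV-ERB repressors, and of the 10 differences that of Nr1d2 was the largest and that of Nr1d1 the third. Nr1d2 read 6.97, 7.13, 6.92, 7.35 and 8.01 in Nkx2.2-/- replicates 11, 12, 22, 29 and 43, against 7.46, 6.89, 6.96, 6.94 and 6.93 in wild-type replicates 14, 15, 16, 18 and 21. Its difference of 0.24 (SE 0.195) rested in large part on Nkx2.2-/- replicate 43, was 0.06 without that mouse and 0.35 without wild-type replicate 14. Without both it was 0.17 (SE 0.0857), and the genotypes overlapped in each case. The pooled SD of this probe set, 0.355, was above that of 98.0% of probe sets. Its second probe set had a difference of 0.002, at a mean above only 10.5% of probe sets. Nr1d1 read 5.167, 5.150, 5.245, 5.098 and 5.004 in Nkx2.2-/- mice and 4.91, 5.01, 5.06, 5.04 and 5.16 in wild-type mice, in the same order of replicates. Its difference was 0.10 (SE 0.0563) with all arrays and 0.10 (SE 0.0509) without the low 5 prime pair, whose arrays were the lowest of each genotype.

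Dbp, the output factor that in adult tissues has one of the steepest daily rhythms, showed small differences. Its brightest probe set, of a type whose probes can match other transcripts, read 5.41, 5.40, 5.64, 5.58 and 5.08 in Nkx2.2-/- replicates 11, 12, 22, 29 and 43, against 5.32, 5.45, 5.36, 5.37 and 5.45 in wild-type replicates 14, 15, 16, 18 and 21. The Nkx2.2-/- mice spread over a wider range, between 5.08 and 5.64, than the wild-type mice, between 5.32 and 5.45. The difference was 0.03 (SE 0.0919), and 0.10 (SE 0.0635) without the low 5 prime arrays. The other Dbp probe set had a difference of 0.03 and ordered the mice like the first, with r = 0.904 (exact two-sided permutation p = 0.00167) and rho = 0.770 (exact permutation p = 0.0125), and with r = 0.555 (exact permutation p = 0.0486) on the 8 other arrays.

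A list of 28 further genes of the clock and its regulators was tested. None passed over all probe sets (limma, Benjamini-Hochberg), where 0.0511% did, and 0 had an unadjusted p under 0.05. In sign 14 were higher and 14 lower in Nkx2.2-/- mice, with a median log2 difference of -0.001. Arntl, the partner of CLOCK, averaged 5.93 ± 0.265 in Nkx2.2-/- and 6.02 ± 0.122 in wild-type mice, a difference of -0.08. Among the genes that act on D-boxes, the difference was 0.11 for Tef, 0.08 for Hlf and -0.02 for the repressor Nfil3. It was 0.01 for Rora and 0.08 for Rorb, activators at ROR elements, and 0.06, -0.04 and -0.003 for Bhlhe40, Bhlhe41 and Ciart, further repressors of the loop. The list of glucocorticoid-responsive genes had a median difference of -0.06 over 15 genes and that of immediate early genes one of -0.05 over 16.

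Whether the clock genes shifted together from mouse to mouse was examined within genotype, on deviations from each genotype's mean. In Nkx2.2-/- replicate 43, the deviations were 0.73 for Nr1d2, 0.42 for Cry1 and 0.35 for Npas2, beside -0.35 for Dbp, -0.32 for Per1 and -0.13 for Nr1d1. In wild-type replicate 14, they were 0.42 for Nr1d2 and 0.36 for Cry1, beside -0.45 for Per1 and -0.13 for Nr1d1. These are the low 5 prime arrays, and both showed Nr1d1 low with Nr1d2 high. In wild-type replicate 21, Per1 deviated by 0.63, Npas2 by 0.26 and Per3 by -0.29.

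**Figure D3:**
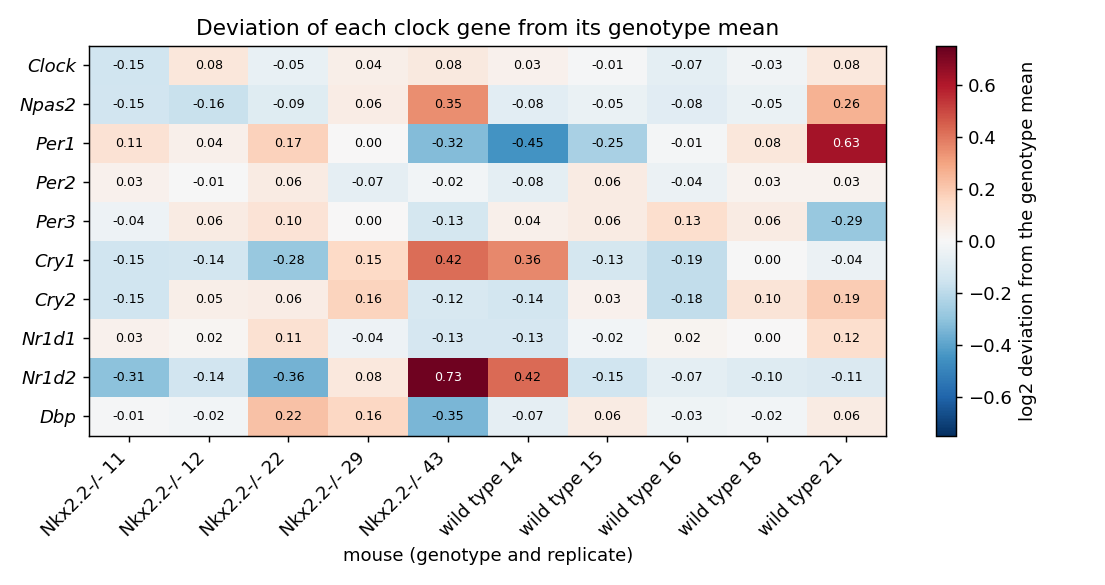
Deviation of each clock gene (rows, probe set of highest mean) from the mean of its genotype in each mouse (columns, Nkx2.2-/- left and wild type right), on the log2 scale; red is above and blue below the mean. Nkx2.2-/- replicate 43 and wild-type replicate 14 share high Cry1 and Nr1d2 with low Per1 and Nr1d1.

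Each of the 10 genes was entered in turn beside genotype in a limma fit over all 18192 other genes, adjusted over the 181920 relations together. Among the clock genes 5 of 90 relations passed, or 5.56%, against 5.64% of all relations (limma, Benjamini-Hochberg adjusted p under 0.05). The share among clock genes was thus close to that of any gene with them. In both directions of the fit only 1 of 45 pairs passed, Cry1 with Nr1d2 (limma adjusted p = 0.00153 for the higher of its p-values). Their r was 0.947 (exact two-sided permutation p = 0.00181) and rho was 0.806 (exact permutation p = 0.0186). Without the low 5 prime arrays, which were also the 2 mice farthest from the median of Cry1, r was 0.844 (exact permutation p = 0.0451), and the limma adjusted p was 0.272. With the second Nr1d2 probe set the r of the pair turned to -0.607 (exact permutation p = 0.0800). The pair still passed without either low 5 prime array alone (limma adjusted p = 0.0274 without Nkx2.2-/- replicate 43 and 0.0103 without wild-type replicate 14). The count of passing pairs was 2 without Nkx2.2-/- replicate 29, with Nr1d2 and Dbp added. It was 3 without wild-type replicate 21, with Per1 added to both Nr1d2 and Cry1. All of these added relations were negative. With all arrays Nr1d2 and Dbp had r = -0.773 (exact permutation p = 0.0451), and on the 8 other arrays -0.0146 (exact permutation p = 0.983).

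Per1 and Nr1d1 ran together, with r = 0.899 (exact permutation p = 2.08e-04) and rho = 0.879 (exact permutation p = 0.00160). On the 8 other arrays r was 0.818 (exact permutation p = 0.00521), and without the 2 mice farthest in Per1, wild-type replicates 14 and 21, it was 0.864 (exact permutation p = 0.00417). In the limma fits 1 direction passed (adjusted p = 0.00547) and the other did not (0.0700), and on 8 arrays neither passed (0.246 and 0.559). This pair, named after its values were seen, and Cry1 with Nr1d2 were the 2 pairs of 45 with an unadjusted exact p of r under 0.05 both with and without the pair of arrays.

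Nr1d1 and Nr1d2, which peak at near times in adult tissues, ran against each other. Their r was -0.848 (exact permutation p = 0.00194) and rho was -0.733 (exact permutation p = 0.0320), with limma adjusted p-values of 0.0157 and 0.0935. Without the low 5 prime arrays, also the farthest 2 in Nr1d1, r was -0.591 (exact permutation p = 0.146). With the second probe set of Nr1d2 it was 0.466 (exact permutation p = 0.204), so the direction depended on the probe set. Nr1d1 and Dbp had r = 0.670 (exact permutation p = 0.0358) and rho = 0.552 (exact permutation p = 0.131), and r = 0.311 (exact permutation p = 0.510) without those arrays.

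Dbp and Arntl, which peak at opposite times in adult tissues, also ran against each other. Arntl read 5.91, 5.89, 5.69, 5.81 and 6.38 in Nkx2.2-/- replicates 11, 12, 22, 29 and 43, against 6.23, 5.94, 5.96, 5.95 and 6.02 in wild-type replicates 14, 15, 16, 18 and 21. It was highest where Dbp was lowest, on the low 5 prime array of each genotype. The r was -0.919 (exact permutation p = 0.00215) and rho was -0.733 (exact permutation p = 0.0335), and Arntl passed in the fit with Dbp (limma adjusted p = 0.00687), as did 5.69% of all genes. On the 8 other arrays r was -0.769 (exact permutation p = 0.128), and it was -0.558 (exact permutation p = 0.0778) without Nkx2.2-/- replicates 22 and 43, the farthest in Dbp. Dbp and Npas2 had r = -0.442 (exact permutation p = 0.341; rho = -0.0182, exact permutation p = 0.977) with all arrays and 0.522 (exact permutation p = 0.116) without the low 5 prime arrays, so that relation turned round.

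**Figure D4:**
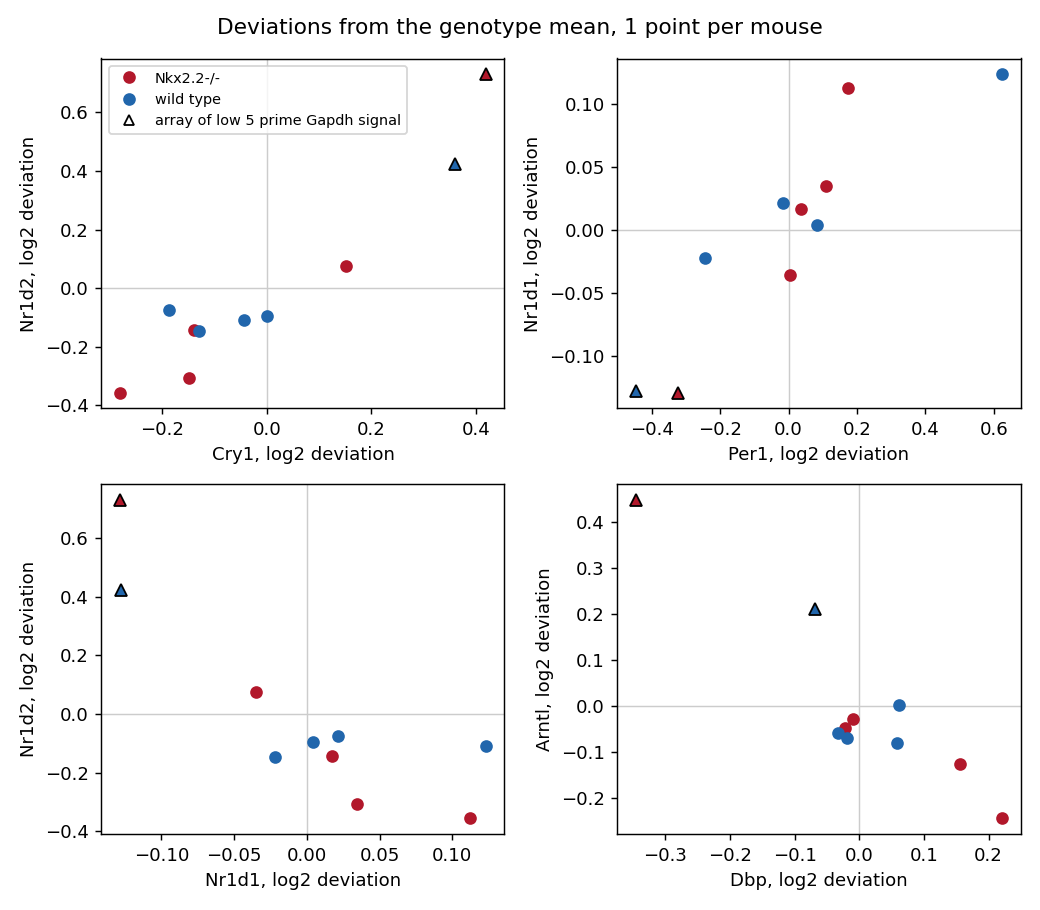
Deviations from the genotype mean on the log2 scale for 4 pairs of clock genes, 1 point per mouse, in Nkx2.2-/- (red) and wild-type mice (blue); triangles are the low 5 prime arrays. The triangles lie at the ends of the Cry1 with Nr1d2 and the Nr1d1 with Nr1d2 relations.

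No pair of Per2 passed in the limma fits. With Dbp its r was 0.318 (exact permutation p = 0.404; rho = 0.503, exact permutation p = 0.147), with Nr1d1 0.621 (exact permutation p = 0.0779; rho = 0.491, exact permutation p = 0.177), with Per3 -0.0441 (exact permutation p = 0.929; rho = 0.200, exact permutation p = 0.615) and with Npas2 -0.108 (exact permutation p = 0.786; rho = -0.188, exact permutation p = 0.598). Without Nkx2.2-/- replicate 29 and wild-type replicate 14, the farthest in Per2, these were 0.685, 0.424, 0.0262 and -0.223 (exact permutation p = 0.0226, 0.314, 0.958 and 0.609). On the 8 arrays they were 0.220, 0.442, -0.0612 and -0.164 (exact permutation p = 0.693, 0.313, 0.870 and 0.734). In the limma fits the higher adjusted p of these 4 pairs ran from 0.488 to 0.973. The direction depended on the probe set: with the second Per2 probe set r was -0.716 with Dbp (exact permutation p = 0.0816), -0.698 with Nr1d1 (exact permutation p = 0.0348) and 0.644 with Npas2 (exact permutation p = 0.0890).

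By rho, and by r on the 8 arrays, the clock gene closest to Per2 was Nr1d2, and it ran against Per2. This pair was named after its values were seen. By r with all arrays Cry1 was slightly closer to Per2, at -0.647 (exact permutation p = 0.0597). For Per2 and Nr1d2, r was -0.630 (exact permutation p = 0.0524) and rho was -0.842 (exact permutation p = 0.00250). On the 8 arrays r was -0.856 (exact permutation p = 0.00347), the largest in size of the 45 pairs there, and rho was -0.929 (exact permutation p = 0.00694). Without the 2 mice farthest in Per2 r was -0.555 (exact permutation p = 0.0590). The limma adjusted p-values were 0.197 and 0.467 with all arrays, and 0.272 and 0.577 on 8 arrays. With the second Per2 probe set r was 0.870 (exact permutation p = 0.00201), and with the second Nr1d2 probe set 0.301 (exact permutation p = 0.426), so this direction too depended on the probe set.

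Over all 45 pairs, 20 had a positive and 25 a negative r, and 10 had another sign without the low 5 prime arrays. With all arrays 10 had an unadjusted exact permutation p under 0.05, and 4 did without the low 5 prime arrays. Among the 10, also named after their values were seen, were Cry1 with Nr1d1 and Per3 with Npas2. Cry1 with Nr1d1 had r = -0.839 (exact permutation p = 0.00681), and -0.492 (0.250) on the 8 arrays. Per3 with Npas2 had r = -0.799 (0.0164), -0.838 (0.101) on the 8 arrays, and -0.182 (0.816) without Nkx2.2-/- replicate 43 and wild-type replicate 21. How often pairs of any genes reach such a p was not computed, so counts of pairs by this test are a description only.

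How many genes varied with a clock gene differed widely between the clock genes. With all arrays 3150 genes passed with Nr1d2, 2957 with Cry1, 2158 with Nr1d1 and 1036 with Dbp (limma, Benjamini-Hochberg). These were 17.3%, 16.3%, 11.9% and 5.69% of the genes tested. The count was 337 for Cry2 (1.85%), 326 for Per1 (1.79%), 131 for Per2 (0.720%), 85 for Npas2 (0.467%), 47 for Per3 (0.258%) and 38 for Clock (0.209%). Without those arrays 0 of 181920 relations passed, with a smallest limma adjusted p of 0.196, and 20113 had an unadjusted p under 0.05, beside 34864 with all arrays. With the Gapdh gap of each array as a further term, and all 10 arrays kept, 0 passed as well, with a smallest limma adjusted p of 0.144, and 18508 had an unadjusted p under 0.05. Of the 90 relations among clock genes, 14 and 13 had an unadjusted limma p under 0.05 in those runs, beside 22 with all arrays. In both directions of the fit, a stricter count, 6 and 5 of 45 clock pairs did, beside 9 with all arrays.

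**Figure D5:**
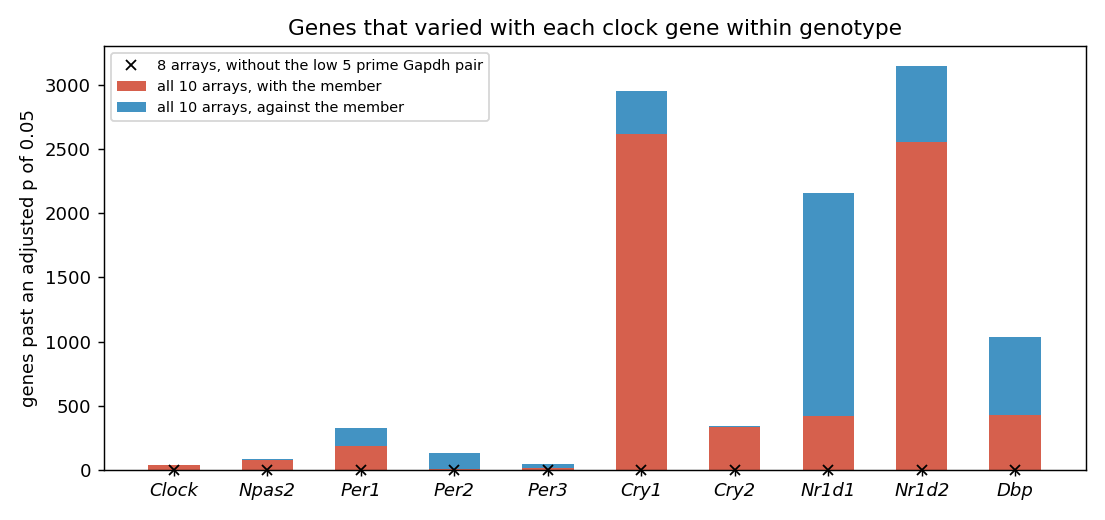
Number of genes, of 18192 tested, that varied with each clock gene within genotype at a limma adjusted p under 0.05, with all 10 arrays (bars, split by the sign of the relation) and without the low 5 prime arrays (crosses, all at 0). Nr1d2 and Cry1 have the tallest bars, at 3150 and 2957.

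The genes most like Per2 in their deviations over the 10 mice, of 18192, were Rnf166 (r = 0.930), Nags (0.916), Tmem239 (0.912), Tnfsf4 (0.904) and Eif4ebp1 (0.892), and the most opposite were Decr2 (-0.973), Tmem35a (-0.952) and E230016M11Rik (-0.949). None of them is a clock gene of the lists used here. On the 8 arrays their r ran from 0.893 to 0.938 and from -0.967 to -0.931. Those arrays are among the 10 used to choose the genes, so this is no separate test. For Dbp they were Chpf (0.973), Zfp575 (0.973), Sppl2b (0.968), Gnaz (0.966) and Dlk2 (0.963), and the most opposite were Zfp11 (-0.971), Lats1 (-0.951) and Arfip1 (-0.942). For these r on the 8 arrays was from 0.861 to 0.912 and from -0.905 to -0.818. With 10 mice sharing 2 group means, r was ranked over all genes and is given only as a measure of likeness.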

How the data were processed

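RNA of 10 mice was measured on 1 array each. The deposited values are log2 expression values per probe set, made by the authors with RMA per the submitters' processing notes, with no version stated. RMA draws arrays to 1 distribution and compresses differences between dim probe sets. The number of arrays limits the precision. Groups come from the sample titles. Nothing used here ties mice to litters or array runs, so p-values cover only the spread from mouse to mouse.

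The 64 control probe sets among 45101 were dropped, with no filter on level. Symbols came from the platform annotation. All 10 clock genes matched RefSeq (GRCm38.p6) by Entrez number, and 0 of the 23 probe sets named several genes. Genotypes were compared over 45037 probe sets with limma 3.58.1 under R 4.3.3 (lmFit and eBayes, Benjamini-Hochberg adjustment, threshold 0.05); differences are Nkx2.2-/- minus wild type. Within-genotype relations used 1 probe set per gene (highest mean, 18193 genes), limma with genotype and a clock gene as terms, and exact permutation tests that reorder mice within genotype (14400 orders for 10 arrays, 576 for 8; unadjusted). The genotype fit, the association fit and the exact test were tested on simulated data. The clock genes, lists, tests and alternatives were chosen with earlier results of these data known. Named were all 10 clock genes, 9 further clock genes, 8 set pairs and those that passed, and the genes most like Per2 and Dbp. The alternatives were 2 normalizations, a filter on dim probe sets, other units of test, another prior, array weights, 3 covariates, another threshold arrays left out, and for correlations rho, no centring and other probe sets. Figures used Python 3.11.15 and matplotlib 3.10.9.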

Additional observations from a re-analysis of the deposited data

Results flagged for a closer look

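In 64 groups of 5 mice, made of the 23 clock probe sets and 9 further clock genes in each genotype, 8 held a mouse whose gap to the nearest other exceeded 0.71 of the group's range, and chance flags about 1 in 20 groups. Of these, 5 came from the low 5 prime arrays. Nkx2.2-/- replicate 43 read 4.78 for the dimmer Dbp probe set, against 5.15 to 5.23 in the other Nkx2.2-/- mice. Wild-type replicate 14 read 7.46 for the brighter Nr1d2 probe set, against 6.89 to 6.96 in the other wild-type mice. The same mouse read 6.23 for Arntl, against 5.94 to 6.02, 6.10 for Bhlhe40, against 5.78 to 5.85, and 6.11 for Nfil3, against 5.82 to 5.89. Wild-type replicate 21 read 5.42 for the brighter Npas2 probe set, against 5.07 to 5.11, and 5.11 for the brightest Per3 probe set, against 5.43 to 5.52. Wild-type replicate 18 read 4.16 for the dimmer Nr1d2 probe set, against 4.28 to 4.32.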

How the results depend on the processing

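The log2 difference of each clock gene stayed within 1 SD between mice of the value given. This held under all 176 combinations of gene and an alternative that can change it. In groups of this size, leaving out a single mouse cannot move a difference by 1 SD between mice. Those combinations could not fail, so they do not show that the differences are stable. No clock gene passed under any alternative. Nr1d1 fell below the filter on dim probe sets. Per2 was higher in Nkx2.2-/- mice in 18 of 18 such alternatives, from 0.12 to 0.18, Nr1d2 in 18 of 18 (0.06 to 0.35) and Nr1d1 in 17 of 17. For Per2 every Nkx2.2-/- mouse lay above every wild-type mouse, so leaving out or weighting mice could not turn its sign. Those alternatives therefore do not show that the sign of Per2 is stable. The signs of Clock, Cry1, Cry2, Dbp, Npas2, Per1 and Per3 turned in at least 1. The median difference over the 10 clock genes, 0.05, was 0.01 with the caudal Hox covariate, 0.04 with the proliferation covariate, and 0.02 to 0.09 without single mice.

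The count of probe sets passing by genotype, 23, became 11 with 1 probe set per gene and 12 with each gene's probe sets averaged, where fewer units were tested, 9 with caudal Hox genes as a covariate and 15 with proliferation genes, 31 with the trend and robust prior and 31 with the Gapdh covariate, and ran from 18 to 23 without single mice. The 1 clock pair that passed became 0 without the 2 low 5 prime arrays and 0 with the Gapdh gap as a covariate. The count was also 0 among brighter genes only, where clock genes below the median level of all genes were not entered. Whether Cry1 was kept there is not known here, so that 0 does not show that the pair failed. The count became 2 with the caudal Hox or proliferation covariate and with the trend and robust prior, each adding Nr1d2 with Dbp. That added relation was negative in each. The count was 2 with quantile normalization, adding Per1 with Nr1d1, a positive relation, and 1 to 3 without single mice. The number of pairs with r past 0.8 in size, 4, was 5 without the low 5 prime arrays, 3 by rho and 1 without centring on genotype. The causes were not tested.

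Among the pairs whose r was followed through the alternatives, those that changed sign were these. Most of the 45 pairs were not followed in this way. Of all 45 pairs, 10 had another sign on 8 arrays, and only Npas2 with Dbp of those is listed here. With the second Per2 probe set, r was -0.716 with Dbp, -0.698 with Nr1d1, 0.644 with Npas2 and 0.870 with Nr1d2. Per2 with Per3 was 0.200 by rho, 0.201 without centring, 0.0262 without the farthest mice, and ran from -0.214 to 0.247 without single mice. Per2 with Npas2 was 0.0034 without centring and -0.272 to 0.0166 without single mice. Npas2 with Dbp was 0.522 on 8 arrays, 0.640 without the farthest mice, 0.538 with the second Npas2 probe set, and -0.648 to 0.561 without single mice. With the second Nr1d2 probe set, r was 0.466 with Nr1d1, -0.607 with Cry1 and 0.301 with Per2. No paired analysis was possible because the mice of the genotypes share no replicate numbers.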
